A study of Homo sapiens with 8 samples.

Results

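The HIPK and CLK kinases were followed at the RNA level in prostate cancer cells with and without PAGE4 and with and without hydrogen peroxide. The set held HIPK1, HIPK2, HIPK3, CLK1, CLK2, CLK3 and CLK4, taken by symbol from the gene count tables of both cell lines, and all 7 were found among the 58828 genes listed. HIPK1 and CLK2 are the kinases known to phosphorylate PAGE4, and the other 5 are close relatives of these. The study sequenced RNA from 8 cultures, 1 for each combination of cell line, construct and treatment. The lines were 22RV1 and DU145, both established human prostate carcinoma lines. Each line carried a lentiviral, doxycycline-inducible construct, either empty (Vector) or with the PAGE4 reading frame (PAGE4), and each culture received H2O2, labelled 200 mM, or PBS for 12 h. All transduced cells were puromycin-selected pools that had also been given doxycycline, so the Vector cultures shared the selection and the inducer. Since 1 library stood for each condition, p-values measured how an effect varied between matched pairs, not between replicate cultures. For H2O2 the pairs differed in line and construct, for PAGE4 in line and treatment, and for the line in construct and treatment. Clonal or culture differences between a Vector and a PAGE4 pool cannot be told apart from an effect of PAGE4.

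HIPKs are nuclear serine/threonine kinases that bind transcription factors and co-regulators, and they respond to DNA damage and other stress. CLKs are dual-specificity kinases that phosphorylate the arginine/serine-rich (SR) splicing factors and so release them from nuclear speckles. PAGE4 is a prostate-associated, intrinsically disordered protein; HIPK1 phosphorylates it and favours its action on c-Jun, whereas CLK2 hyperphosphorylates it and weakens that action. Kinase activity, protein and phosphorylation were not measured here, and gene counts do not separate splice forms, such as the intron-retaining CLK1 transcripts that are known to be kept in the nucleus.

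The results below turn on the CLK genes, so the 250 bases upstream of their transcription start are shown. They come from RefSeq on GRCh38.p14, which had an entry for 6 of the 7 members, not for HIPK2. Capitals mark TGACG, the core letters of the cAMP response element (CRE), read on either strand, so that the reverse complement is CGTCA.
CLK1 (chr2:200864659-200864908, minus strand): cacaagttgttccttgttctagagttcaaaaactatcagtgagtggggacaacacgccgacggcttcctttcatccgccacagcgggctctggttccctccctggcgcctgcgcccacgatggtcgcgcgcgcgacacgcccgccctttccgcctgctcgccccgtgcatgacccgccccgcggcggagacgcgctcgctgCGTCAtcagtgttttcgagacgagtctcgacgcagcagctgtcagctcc
CLK2 (chr1:155273505-155273754, minus strand): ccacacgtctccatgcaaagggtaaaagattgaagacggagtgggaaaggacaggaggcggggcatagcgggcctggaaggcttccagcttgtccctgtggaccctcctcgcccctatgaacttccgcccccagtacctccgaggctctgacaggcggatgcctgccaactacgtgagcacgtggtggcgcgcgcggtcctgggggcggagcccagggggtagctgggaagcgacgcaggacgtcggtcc
CLK3 (chr15:74615586-74615835, plus strand): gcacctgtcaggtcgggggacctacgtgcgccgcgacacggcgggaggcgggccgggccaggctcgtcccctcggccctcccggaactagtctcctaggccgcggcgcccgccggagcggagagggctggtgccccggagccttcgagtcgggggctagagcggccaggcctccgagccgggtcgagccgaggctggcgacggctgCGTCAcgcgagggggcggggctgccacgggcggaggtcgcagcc
CLK4 (chr5:178627051-178627300, minus strand): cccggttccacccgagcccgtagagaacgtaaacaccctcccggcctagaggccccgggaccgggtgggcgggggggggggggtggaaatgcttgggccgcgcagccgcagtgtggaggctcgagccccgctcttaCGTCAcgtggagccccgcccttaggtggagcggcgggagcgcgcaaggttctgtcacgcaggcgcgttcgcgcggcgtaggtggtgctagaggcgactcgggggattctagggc
The CRE letters stood once in the windows shown for CLK1, CLK3 and CLK4 and not in that for CLK2. Of 35116 such windows in the RefSeq table, 21.2% held them. The windows of CLK1 and CLK3 also held TGACNNNGC, the letters of the antioxidant response element bound by NRF2, which overlap the CRE letters, against 10.9% of all windows. The E-box CACGTG was found once each for CLK2 and CLK4, in CLK4 overlapping the CRE letters, against 6.34% of all windows. The AP-1 letters TGANTCA, present in 6.57% of all windows, were found in none of these 4 windows, in none of the 3 of HIPK3 and in 1 of the 3 of HIPK1, of which another held the CRE letters. CLK1 and CLK3 each had another window. That of CLK1 held the CRE and antioxidant response letters as well, and that of CLK3 held none of the 4 motifs, so the CLK3 window shown is the one with matches. Counted by gene, 24.9% of 27305 genes held the CRE letters in at least 1 window. The shares were 13.2% for the antioxidant response letters, 7.73% for the E-box and 8.06% for the AP-1 letters. All 4 motifs were searched on both strands, and a match describes letters only.

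The libraries held 25482984 to 43310401 counts assigned to genes, with a median of 29843277, and the 7 members took 0.0377% to 0.0932% of them. PAGE4, the overexpressed gene, was read first as a check of the labels. In 22RV1 it had 1 and 0 counts in the Vector cultures without and with H2O2 and 1489 and 1179 in the PAGE4 cultures. In DU145 it had 1 and 1 in the Vector cultures and 1001 and 1431 in the PAGE4 cultures, so the constructs matched their labels in both lines. The line labels were matched as well. The 8 markers of 22RV1 summed to 771 to 2226 CPM (counts scaled to library size) in 22RV1 and to 35.3 to 39.6 CPM in DU145. The 6 of DU145 summed to 213 to 326 CPM in 22RV1 and 1012 to 1197 CPM in DU145. Of these, VIM, AXL, S100A2 and CAV1 were higher in DU145, but LGALS1 and CD44 were not. Their fitted log2 differences, 22RV1 minus DU145, were 0.49 ± 0.10 and 0.21 ± 0.09 (edgeR, adjusted p = 0.00361 and 0.07). In 22RV1 the sum of its own markers was lower with H2O2 (771 and 1035 CPM) than with PBS (2226 and 2055 CPM). The 4 epithelial markers summed to 1080 to 2568 CPM, and 6 fibroblast and leukocyte markers to 0.183 to 4.83 CPM, with 1 to 5 of the 6 at 0 in each library. Mitochondrial mRNA moved with the treatment. It was 8.19% and 6.71% of counts in 22RV1 with PBS and 5.17% and 5.70% with H2O2, and in DU145 10.5% and 9.30% with PBS and 2.19% and 2.01% with H2O2. Its part in the results below was not tested.

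Per length, CLK2 was the most abundant member and CLK4 the least in both lines. Levels are given in reads per kilobase of merged exons on TMM-scaled library sizes (RPKM), with the SD over the 4 libraries of a line, which differ in construct and treatment. In 22RV1 CLK2 stood at 26.4 ± 2.66 RPKM, HIPK2 at 19.5 ± 4.89, HIPK1 at 12.4 ± 1.10, HIPK3 at 10.2 ± 0.663, CLK1 at 8.89 ± 2.66, CLK3 at 3.62 ± 0.891 and CLK4 at 1.20 ± 0.312. In DU145 the order of the means was the same, with CLK2 at 25.3 ± 1.66 RPKM, HIPK2 at 12.1 ± 2.92, HIPK1 at 8.13 ± 2.13, HIPK3 at 6.96 ± 1.30, CLK1 at 5.36 ± 2.74, CLK3 at 3.60 ± 1.10 and CLK4 at 0.969 ± 0.339. The ranges of CLK2 and HIPK2 overlapped in 22RV1 and not in DU145, those of HIPK3 and CLK1 overlapped in both lines, and in DU145 each neighbour from HIPK2 down to CLK3 overlapped the next. The range of CLK4 overlapped with no neighbour in either line. The middle of the order depended on the length used: with the longest annotated transcript in place of merged exons, CLK1 stood ahead of HIPK3 in both lines (14.2 ± 4.24 RPKM in 22RV1 and 8.55 ± 4.37 RPKM in DU145).

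**Figure D1:**
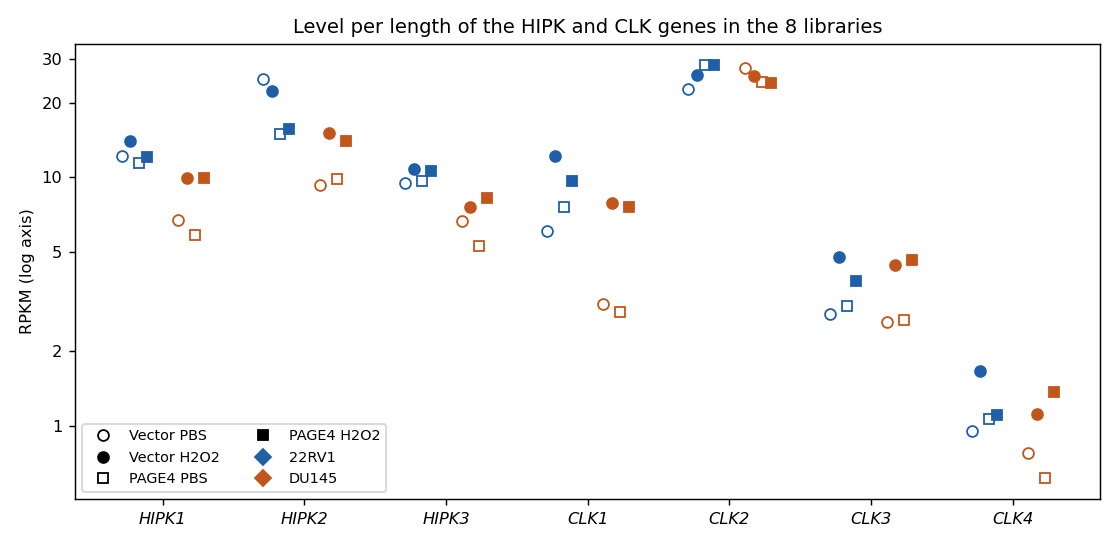
Level of each member in the 8 libraries in RPKM on a log axis, with 22RV1 in blue, DU145 in orange, circles for Vector, squares for PAGE4, open symbols for PBS and filled symbols for H2O2. CLK2 lay between 22.8 and 28.4 RPKM in every library, while CLK1 spread from 2.88 to 12.2 RPKM and was higher with H2O2 in all 4 cultures.

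CLK1 and CLK3 rose with H2O2 in both lines, whereas CLK2 stayed within a narrow range. Across the 4 cultures compared with and without H2O2, 2 of the 7 members passed edgeR's quasi-likelihood test at a Benjamini-Hochberg adjusted p under 0.05, both of them higher. The same test called 23% of the 19784 genes tested, and 10.2% as higher. The fitted log2 changes of the 7 members were all above 0 (0.02 to 1.02), with a median of 0.40 against -0.04 over all genes tested. In bulk RNA, fewer cells with a transcript and less of it per cell cannot be told apart.

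CLK1 (chr2:200853009-200864691, GRCh38), an SR-protein kinase, had 1392 counts in the 22RV1 Vector culture with PBS and 2411 with H2O2, and 1560 and 1406 in the 22RV1 PAGE4 culture, whose H2O2 library was the shallowest. In DU145 it had 435 and 1007 counts in the Vector culture and 399 and 973 in the PAGE4 culture. In RPKM it went from 6.09 to 12.2 and from 7.57 to 9.70 in 22RV1, and from 3.10 to 7.89 and from 2.88 to 7.57 in DU145. Every H2O2 library of a line was thus above both PBS libraries of that line. Scaled by DESeq2 size factors, CLK1 was 2.03-fold and 1.27-fold higher with H2O2 in the Vector and PAGE4 cultures of 22RV1, and 2.62-fold and 2.73-fold higher in those of DU145. The fitted change was 1.02 ± 0.18 on the log2 scale (SE, 8 libraries, adjusted p = 0.00865). It remained past the threshold without each culture in turn, at 0.90 to 1.26.

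CLK3 (chr15:74598500-74645414), which also phosphorylates SR proteins, followed the same order at a lower level. It went from 2.81 to 4.79 RPKM and from 3.05 to 3.83 RPKM in the Vector and PAGE4 cultures of 22RV1, and from 2.63 to 4.44 RPKM and from 2.67 to 4.66 RPKM in those of DU145. The H2O2 and PBS libraries did not overlap in either line. The size-factor-scaled differences were 1.72-fold, 1.25-fold, 1.74-fold and 1.81-fold in that order, and the fitted change was 0.66 ± 0.11 (SE, adjusted p = 0.00683). CLK3 shares 701 exon bases with EDC3, an mRNA decapping factor on the opposite strand, and whether reads were counted by strand is not given in the sources used here. EDC3 also had more counts with H2O2 in all 4 cultures (2116 and 2781, 1699 and 1983, 1610 and 2245, 1442 and 2271), and its part in the values of CLK3 was not tested. The annotated pseudogenes CLK3P2 and CLK2P1 had at most 1 count in any library.

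CLK4 (chr5:178602664-178630615), the relative closest to CLK1, was counted 132 to 507 times per library, and its counting intervals were the widest of the 7. It went from 0.957 to 1.66 RPKM in the 22RV1 Vector culture but only from 1.07 to 1.11 RPKM in the 22RV1 PAGE4 culture. In DU145 it went from 0.774 to 1.12 RPKM with Vector and from 0.615 to 1.37 RPKM with PAGE4. The fitted change of 0.63 ± 0.20 did not pass the test (adjusted p = 0.0621). Without the 22RV1 PAGE4 culture it was 0.84 ± 0.20 and passed (adjusted p = 0.0328), and so it did with the DESeq2 Wald test, with the cell line as the only block and with no filter on low counts (adjusted p = 0.0242, 0.0295 and 0.0207). Without each of the other 3 cultures in turn it was 0.46 to 0.66 and did not pass (adjusted p of 0.143 to 0.212).

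CLK2 (chr1:155262868-155278491), the CLK that acts on PAGE4, was the member with the smallest fitted change. It stood at 22.8 and 25.9 RPKM without and with H2O2 in the 22RV1 Vector culture and at 28.3 and 28.4 RPKM in the 22RV1 PAGE4 culture. In DU145 it stood at 27.6 and 25.6 RPKM with Vector and at 24.3 and 23.9 RPKM with PAGE4. The log2 differences were 0.20, -0.003, -0.07 and 0.03, of which only the first had a 95% counting interval (0.14 to 0.27) that left out 0. The fitted change was 0.02 ± 0.09 (SE, adjusted p = 0.916). As the other CLKs were higher, the share of CLK2 in the summed RPKM of the 4 CLKs was lower in each H2O2 library. It was 69.8% and 58.2% without and with H2O2 in the 22RV1 Vector culture, 70.8% and 66.0% in the 22RV1 PAGE4 culture, 80.9% and 65.5% in the DU145 Vector culture, and 79.7% and 63.7% in the DU145 PAGE4 culture.

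**Figure D2:**
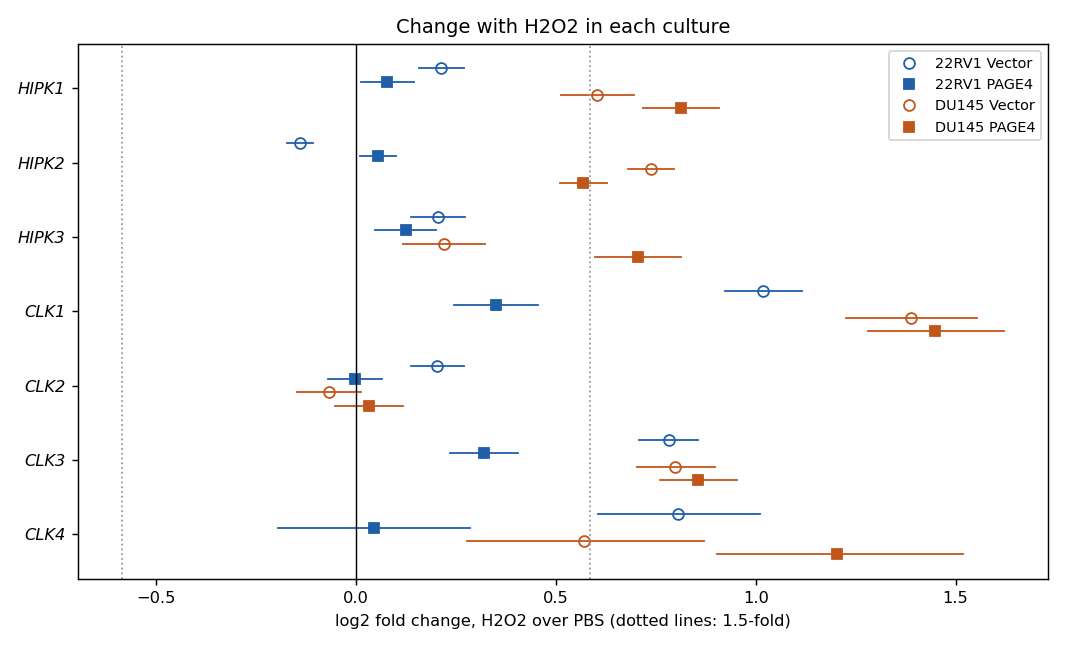
Log2 fold change with H2O2 over PBS for each member in each of the 4 cultures, with bars for the exact 95% interval of the ratio of the counts (counting error only) and dotted lines at 1.5-fold. CLK1 reached 1.02 in the 22RV1 Vector culture, 1.39 and 1.45 in the DU145 cultures, and 0.35 in the 22RV1 PAGE4 culture, while CLK2 lay between -0.07 and 0.20.

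Among the HIPKs the fitted change with H2O2 was larger in DU145 than in 22RV1, and this difference passed the interaction test below for HIPK1 and HIPK2. HIPK1 (chr1:113929324-113977869), the kinase that phosphorylates PAGE4 and binds DAXX and c-Myb, went from 6.74 to 9.95 RPKM in the DU145 Vector culture and from 5.89 to 9.96 RPKM in the DU145 PAGE4 culture. In 22RV1 it went from 12.2 to 14.0 RPKM with Vector and from 11.4 to 12.1 RPKM with PAGE4. The log2 differences were thus 0.60 and 0.81 in DU145 against 0.21 and 0.08 in 22RV1, where the treatments overlapped. Fitted over the 4 cultures, the change of 0.40 ± 0.13 did not pass (adjusted p = 0.0562), and it passed without the 22RV1 PAGE4 culture (0.52 ± 0.14, adjusted p = 0.0463), with the Wald test, with the line as the only block and with no filter (adjusted p = 0.0412, 0.0302 and 0.0144). Without each of the other 3 cultures in turn it was 0.28 to 0.49 and did not pass (adjusted p of 0.0866 to 0.207). An antisense transcript, HIPK1-AS1, shares 172 exon bases with it but had only 3 to 39 counts per library.

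HIPK2 (chr7:139561570-139777998) is activated by DNA damage and promotes apoptosis. It was the member with the most counts, 3986 to 17378 per library. In DU145 it went from 9.31 to 15.1 RPKM with Vector and from 9.85 to 14.1 RPKM with PAGE4, with the H2O2 libraries above both PBS libraries. In 22RV1 it stood at 24.9 RPKM with PBS and 22.3 RPKM with H2O2 in the Vector culture and at 15.0 and 15.7 RPKM in the PAGE4 culture, so the treatments overlapped and the constructs did not. The fitted change with H2O2 over the 4 cultures was 0.28 ± 0.15 (adjusted p = 0.207). HIPK3 (chr11:33256672-33357023), known to interact with FADD and to act on JNK signalling, went from 9.49 to 10.8 and from 9.71 to 10.6 RPKM in 22RV1 and from 6.69 to 7.58 and from 5.28 to 8.28 RPKM in DU145. Every H2O2 library of a line was above both PBS libraries of that line for HIPK3. Its fitted change was 0.29 ± 0.11 (adjusted p = 0.103), and only the DU145 PAGE4 culture passed 1.5-fold, at 1.63-fold.

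The difference between the lines was tested directly as an interaction. The change with H2O2 was lower in 22RV1 than in DU145 by 0.65 ± 0.12 on the log2 scale for HIPK2 (SE, adjusted p = 0.000428), by 0.52 ± 0.12 for HIPK1 (adjusted p = 0.00579) and by 0.69 ± 0.19 for CLK1 (adjusted p = 0.0144). These 3 of 7 members compared with 19.5% of all genes tested, and 8.87% called with a lower change in 22RV1. CLK3 (-0.23 ± 0.14, adjusted p = 0.298), HIPK3 (-0.25 ± 0.15, adjusted p = 0.258), CLK4 (-0.41 ± 0.31, adjusted p = 0.395) and CLK2 (0.16 ± 0.12, adjusted p = 0.401) did not pass. Fitted on the 4 libraries of a line alone, with 1 residual degree of freedom, 6 of the 7 members rose in DU145, all but CLK2, where 56.7% of genes were called. HIPK1 rose there by 0.71 ± 0.09, HIPK2 by 0.65 ± 0.08, HIPK3 by 0.46 ± 0.09 and CLK4 by 0.89 ± 0.19 (adjusted p = 4.65e-15, 7.22e-17, 1.85e-06 and 1.54e-05). In 22RV1 alone the 2 called were CLK1 (0.70 ± 0.12, adjusted p = 2.12e-07) and CLK3 (0.57 ± 0.11, adjusted p = 2.87e-06), where 34.3% of genes were called, and HIPK2 had a fitted change of -0.03 ± 0.09 (adjusted p = 0.835). The p-values of these single-line fits rest on 2 pairs and on a spread borrowed from other genes. Neither these p-values nor those of the interaction, which also had 2 pairs in each line, measure the spread of replicate cultures. In the Vector and PAGE4 cultures of DU145, HIPK3 differed by 0.22 and 0.70 and CLK4 by 0.57 and 1.20 (log2). The mitochondrial mRNA share fell further with H2O2 in DU145 than in 22RV1 (above), and its part in these differences was not tested.

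The ratio of HIPK1 to CLK2 reads is independent of library scaling. In DU145 it was 0.611 without and 0.973 with H2O2 in the Vector culture and 0.606 and 1.04 in the PAGE4 culture. The 95% counting intervals of the PBS libraries (0.574 to 0.649 and 0.568 to 0.647) did not meet those of the H2O2 libraries (0.918 to 1.03 and 0.982 to 1.11). In 22RV1 it was 1.34 and 1.35 in the Vector culture and 1.01 and 1.07 in the PAGE4 culture, so there it differed by construct and not by treatment beyond counting error. The ratio of CLK1 to CLK2 reads was higher with H2O2 in all 4 cultures: 0.374 and 0.659, 0.374 and 0.477, 0.157 and 0.432, and 0.166 and 0.443, in the order 22RV1 Vector, 22RV1 PAGE4, DU145 Vector and DU145 PAGE4.

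**Figure D3:**
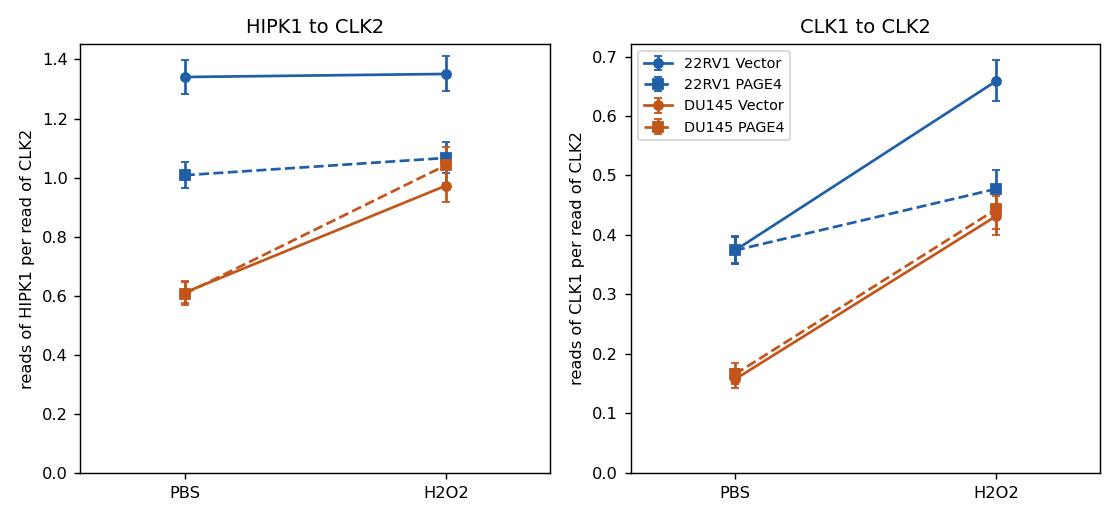
Reads of HIPK1 and of CLK1 per read of CLK2 in each library, PBS at left and H2O2 at right in each panel, with lines joining the libraries of a culture and bars for the exact 95% interval (counting error only). HIPK1 per CLK2 went from 0.611 and 0.606 to 0.973 and 1.04 in DU145 and stayed near 1.34 and 1.01 to 1.07 in the cultures of 22RV1.

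Counted by pair, without a test, members were over 1.5-fold different with H2O2 in 3 of 7 cases in the 22RV1 Vector culture (CLK1, CLK4 and CLK3), in 0 of 7 in the 22RV1 PAGE4 culture, in 4 of 7 in the DU145 Vector culture (CLK1, CLK3, HIPK2 and HIPK1) and in 5 of 7 in the DU145 PAGE4 culture (CLK1, CLK4, CLK3, HIPK1 and HIPK3), all of them higher. The same limit was passed in either direction by 37.4%, 30.5%, 40.3% and 41.3% of the genes whose normalized counts averaged 10 or more. Those higher numbered 3594 and 3009 of 20264 genes in the Vector and PAGE4 cultures of 22RV1. In those of DU145 they numbered 3431 and 3516 of 18088. Scaling by total counts moved the median H2O2 difference of all genes by 0.11 and 0.12 (log2) in the Vector and PAGE4 cultures of 22RV1. All genes over 1.5-fold then split into 4409 higher and 3308 lower in place of 3594 and 3986, and into 3840 and 2452 in place of 3009 and 3173.

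PAGE4 overexpression left the members without a shared change, and HIPK2 differed between the constructs in 22RV1. In the fit over the 4 Vector and PAGE4 pairs, 0 of the 7 members passed, against 0.136% of all genes. At an unadjusted p under 0.05 there was only HIPK2, with a fitted difference of -0.32 ± 0.11 (unadjusted p = 0.0178, adjusted p = 0.513), and the DESeq2 Wald test also called 0 members. Its difference was -0.17 ± 0.10 without the 22RV1 PBS pair and -0.25 to -0.45 without each of the other 3 pairs, with no adjusted p under 0.145. HIPK1 had -0.12 ± 0.07 (adjusted p = 0.706), and the other 5 members lay between -0.11 and 0.04 (adjusted p of 0.927 or more). CLK2 was at 0.04 ± 0.09 and HIPK1 and CLK2, the kinases that act on PAGE4, were both within 1.5-fold in all 4 pairs.

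HIPK2 had 17378 counts in the 22RV1 Vector culture with PBS against 9438 in the PAGE4 culture, and 13473 against 6938 with H2O2. After scaling it was at 0.614-fold of the Vector level with PBS and 0.703-fold with H2O2. In DU145 the PAGE4 cultures stood at 1.06-fold with PBS and 0.942-fold with H2O2. The difference between the lines was -0.61 ± 0.12 on the log2 scale (SE, adjusted p = 0.00506), and HIPK2 was the 1 member of 7 that passed, against 2.49% of all genes. In 22RV1 alone HIPK2 was lower with PAGE4 by 0.62 ± 0.09 on the log2 scale (fitted log2 difference -0.62, adjusted p = 5.78e-09), 1 of 7 members where 6.41% of genes were called. In DU145 alone its fitted difference was -0.01 ± 0.08 (adjusted p = 0.99), with 0 of 7 members called by edgeR, 0 at an unadjusted p under 0.05, and 2.61% of genes called. The share of HIPK2 in the summed RPKM of the 3 HIPKs in 22RV1 was 53.4% and 47.4% in the Vector libraries and 41.5% and 40.8% in the PAGE4 libraries. Each line had 1 Vector and 1 PAGE4 pool, and both treatments used the same pools. The p-values from 22RV1 alone and of the difference between the lines therefore do not measure a spread between pools.

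CLK2 was 1.27-fold and 1.10-fold of the Vector level in the PAGE4 cultures of 22RV1 and 0.882-fold and 0.945-fold in those of DU145, with PBS and H2O2 in turn. Its difference between the lines, 0.37 ± 0.12, did not pass (adjusted p = 0.146). By pair, HIPK2 in 22RV1 with PBS was the only 1 of the 28 member differences over 1.5-fold, that is 1 of 7 where 19.7% of genes passed, and 0 of 7 in 22RV1 with H2O2 (23.2%), DU145 with PBS (15.3%) and DU145 with H2O2 (15.2%). CLK4 in 22RV1 with H2O2 lay just inside the limit, at 0.671-fold. CLK1, CLK3 and CLK4 were above the Vector level in the PAGE4 culture of 22RV1 with PBS (1.27-fold, 1.10-fold and 1.14-fold) and below it with H2O2 (0.796-fold, 0.801-fold and 0.671-fold).

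**Figure D4:**
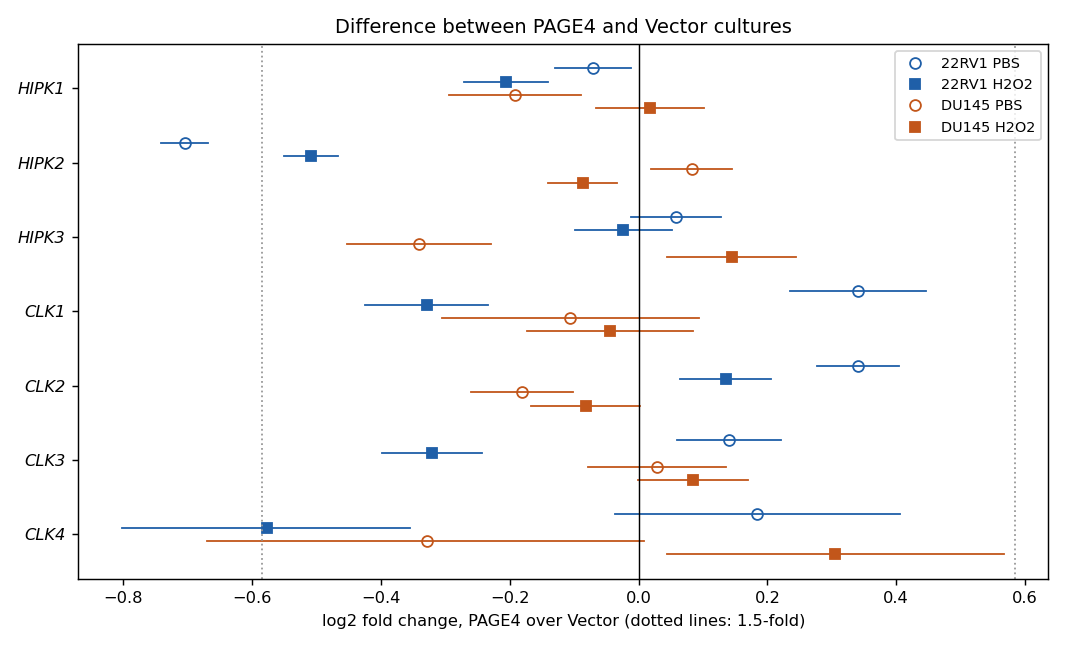
Log2 fold change of PAGE4 over Vector for each member, by line and treatment, with bars for the exact 95% interval of the count ratio (counting error only) and dotted lines at 1.5-fold. HIPK2 stood at -0.70 and -0.51 in 22RV1 and at 0.08 and -0.09 in DU145, and the remaining members lay within 1.5-fold.

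Whether the response to H2O2 differed with PAGE4 was tested by an interaction over both lines. It called 0 of the 7 members and 0% of all genes with edgeR, with 52 genes and no member at an unadjusted p under 0.05. The DESeq2 Wald test also called 0 genes. Neither fit held a term for an H2O2 change that differs between the lines, a difference called for 19.5% of all genes. Such differences widen the spread in these fits, so the lack of calls does not show an unchanged response. For CLK1, whose H2O2 difference was 1.02 with Vector and 0.35 with PAGE4 in 22RV1 but 1.39 and 1.45 in DU145, the interaction was -0.30 ± 0.39 (SE, adjusted p = 1), and the other members had SEs of 0.21 to 0.48, so a difference of the size seen in 22RV1 for CLK1 was not detectable in this fit.

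**Figure D5:**
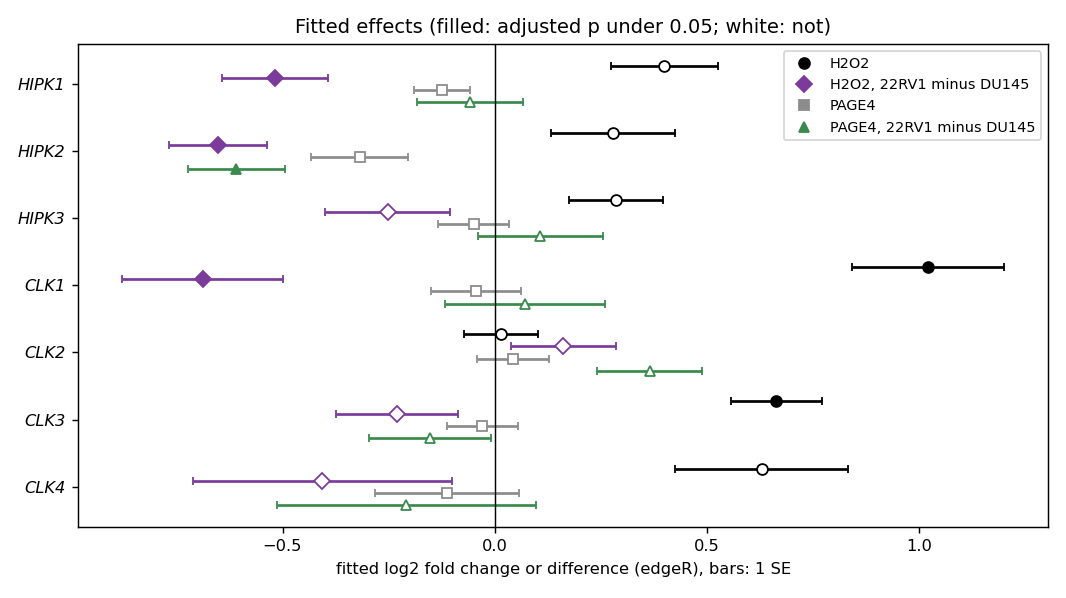
Fitted edgeR effects on the log2 scale for each member with bars of 1 SE, filled where the adjusted p was under 0.05: the change with H2O2, its difference between the lines, the difference with PAGE4, and its difference between the lines. CLK1 (1.02) and CLK3 (0.66) are filled for H2O2, CLK1, HIPK1 and HIPK2 for its line difference, and HIPK2 (-0.61) for the line difference with PAGE4.

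The HIPKs and CLK1 were higher in 22RV1 than in DU145. Over the 4 matched conditions, 4 of 7 members differed between the lines, against 63.2% of all genes, all 4 higher in 22RV1, against 33.1%. The log2 differences were 0.83 ± 0.18 for CLK1 (SE, adjusted p = 0.00404), 0.69 ± 0.19 for HIPK2 (adjusted p = 0.0138), 0.65 ± 0.13 for HIPK1 (adjusted p = 0.00333) and 0.56 ± 0.11 for HIPK3 (adjusted p = 0.00313). CLK4 (0.34 ± 0.22, adjusted p = 0.207), CLK2 (0.05 ± 0.12, adjusted p = 0.703) and CLK3 (0.03 ± 0.11, adjusted p = 0.832) did not pass the same adjusted test. The gap of HIPK2 varied by condition. It was 24.9 against 9.31 RPKM in Vector with PBS and 22.3 against 15.1 RPKM in Vector with H2O2. In PAGE4 it was 15.0 against 9.85 RPKM with PBS and 15.7 against 14.1 RPKM with H2O2. Its fitted difference was 0.44 to 0.86 without each condition in turn.

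The members were set beside related genes and their known partners. Of 10 other CMGC kinases (the DYRKs, the SRPKs, HIPK4 and PRPF4B), 3 rose with H2O2 and 0 fell, with a list median of 0.08. Over all genes tested 23% were called and 10.2% were higher. The 3 kinases were DYRK2 (0.70 ± 0.17, adjusted p = 0.0245), DYRK1B (0.54 ± 0.16, adjusted p = 0.0492) and DYRK1A (0.41 ± 0.12, adjusted p = 0.0425), which are dual-specificity kinases like the CLKs. Of 14 SR splicing factors, the substrates of the CLKs, 1 rose and 0 fell, with a median of 0.16, and this was SRSF8 (0.63 ± 0.10, adjusted p = 0.00619). The shares called, 30% and 7.14%, stand against the same 23% of all genes. Splicing itself was not measured.

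Of 27 HIPK regulators, partners and substrates, 6 rose with H2O2 and 0 fell, with a median of 0.07. This is 22.2% of the list, against 23% of all genes called in either direction and 10.2% called higher. HMGA1, a chromatin protein bound by HIPK2, had a change of 0.86 ± 0.10 (adjusted p = 0.00271), and MDM2, a ubiquitin ligase that degrades HIPK2, had a change of 0.90 ± 0.14 (adjusted p = 0.00649). RUNX1, a transcription factor that HIPK2 phosphorylates, had 0.92 ± 0.25 (adjusted p = 0.038), with log2 differences of 3.06 and 0.29 in the Vector and PAGE4 cultures of 22RV1 and 1.01 and 0.68 in those of DU145. Its level was far lower in 22RV1 (22RV1 minus DU145 -8.32 ± 0.29 on the log2 scale). The contrast between its 22RV1 cultures may therefore rest on few reads. The PAGE4 pathway list held 7 genes, not all of them reported here. Of those reported, 3 rose with H2O2, where 23% of all genes were called and 10.2% were higher. JUN, whose product PAGE4 binds, rose by 1.90 ± 0.26 (adjusted p = 0.00408), FOS, its AP-1 partner, by 1.82 ± 0.29 (adjusted p = 0.00662) and MAP2K4, a JNK kinase, by 0.52 ± 0.11 (adjusted p = 0.0144). MAPK9, which encodes JNK2, fell, with a change of -0.44 ± 0.10 (adjusted p = 0.0214). With PAGE4, 0 genes of these 4 lists passed.

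With each line centred, HIPK1, HIPK3, CLK1, CLK3 and CLK4 moved together, HIPK2 followed them less closely, and CLK2 did not follow. As a description, over the 8 libraries with each gene's log2 level centred on its line, Pearson's r was 0.98 for CLK1 and CLK3, 0.94 for CLK1 and HIPK1 and 0.94 for CLK3 and CLK4. HIPK2 had an r of 0.52 to 0.77 with HIPK1, HIPK3 and the CLKs other than CLK2. In 22RV1 its H2O2 differences were -0.14 and 0.06 (log2) in the Vector and PAGE4 cultures. CLK2 had an r of -0.62 with HIPK2, -0.03 with HIPK1 and 0.11 to 0.24 with the rest. The libraries share their treatment, so genes that follow H2O2 correlate whatever they encode. Among 11008 genes whose normalized counts averaged 100 or more in each line, those most alike to CLK1 were BICD1, UIMC1 and C11orf57, and those most alike to CLK3 were RASSF1, ZBTB43 and SFSWAP, with r of 0.997 to 0.999. The nearest to HIPK1 were TYW1B, ZXDB and ZNF398 (0.995 to 0.997), to HIPK3 PLEKHM3, PHC3 and the SR factor SRSF11 (0.984 to 0.993), and to CLK4 ADNP2, ZNF845 and BACH1 (0.984 to 0.986). The nearest to HIPK2 were ZIC2, TMEM41B and SPRY1 (0.960 to 0.969) and to CLK2 KIAA1919, CUTC and RBM23 (0.935 to 0.950).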

How the data were processed

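RNA of 8 cultures of 22RV1 and DU145 cells was sequenced, 1 library per condition. The authors mapped reads to GRCh38 (hg38) with HISAT2 2.1.0 and deposited raw counts per gene from featureCounts 1.6.0; the annotation, the strand setting and the read layout are not given in the sources used here. Libraries held 25482984 to 43310401 counts. The 2 count tables were joined by gene symbol (58828 genes), of which 26 carried a date in place of their symbol.

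Genes were filtered with filterByExpr by line, scaled by TMM and tested with edgeR 4.0.16 (quasi-likelihood F test, Benjamini-Hochberg adjustment), with the matched pairs as blocks: culture for H2O2, line and treatment for PAGE4, construct and treatment for the line. Folds within pairs used DESeq2 1.42.0 size factors, a pseudocount of 0.5, a limit of 1.5-fold and an average normalized count of 10 or more, after the study's own limit, and have no test. Their 95% intervals are exact (Clopper-Pearson) and cover counting error only. Exon lengths are from GENCODE release 44. Only the fits of the H2O2 effect and of its difference between the lines were tested on simulated data. In these, 200 of 19784 genes were given 4-fold changes, of which 199 and 181 were recovered, with 11 and 13 false calls. Smaller changes and the other fits were not simulated.

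The members and gene lists were chosen with earlier results of these data known. All 7 members are described, and some list genes are not reported here. From each list, genes past the threshold for H2O2 or PAGE4 are named, up to the 3 with the highest and the 3 with the lowest change, and for each member the 3 genes with the highest Pearson r. Alternatives were DESeq2 size factors or its Wald test, no count filter, the line as the only block, each line alone, each pair left out, and other scalings, limits and lengths. Fits on 1 line or without a pair assume that the remaining libraries vary alike.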

Additional observations from a re-analysis of the deposited data

Results flagged for a closer look

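Effects that differed between the cell lines stood out for 3 of the 7 kinases. The change with H2O2 was smaller in 22RV1 than in DU145 for HIPK2 (22RV1 minus DU145 -0.65 on the log2 scale, adjusted p = 0.000428), HIPK1 (-0.52, adjusted p = 0.00579) and CLK1 (-0.69, adjusted p = 0.0144). With the DESeq2 Wald test, DESeq2 size factors and no count filter, the same 3 members and no other passed. The difference between PAGE4 and Vector cultures was lower in 22RV1 than in DU145 for HIPK2 (-0.61, adjusted p = 0.00506). Each of these was tested by an interaction term in edgeR. The p-value of the PAGE4 result does not measure a spread between pools, since both treatments of a line used the same pools. No condition had enough samples to look for a library that stood apart from its group. The 2 findings on HIPK2 share the 22RV1 libraries. What lies behind these differences was not tested.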

How the results depend on the processing

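CLK1 and CLK3 passed for H2O2 under every alternative that was run. Members called for H2O2 went from 2 to 4 with the Wald test, no count filter and the line as the only block, ranged from 2 to 4 without a culture, and were 6 in DU145 alone; the additional ones outside single lines were HIPK1 and CLK4. Over all genes, H2O2 calls were 9021 in DU145 alone and 1974 to 3880 without a culture, against 4545. PAGE4 calls, 27 in the test as reported, were 483 with no count filter, 79 with the Wald test, 1 with the line as the only block, 1146 in 22RV1 alone, 416 in DU145 alone, and 10 to 76 without a pair; members called went from 0 to 1 (HIPK2) with no count filter (fitted log2 difference -0.32, adjusted p = 0.000517) and in 22RV1 alone. With no count filter, 806 genes in place of 493 differed in PAGE4 effect between lines, and 1 in place of 0 in H2O2 effect with PAGE4.

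Values near 0 changed sign: for H2O2, HIPK2 was -0.0295 in 22RV1 alone and CLK2 -0.0182 in DU145 alone and -0.0159 to 0.0543 without a culture. For PAGE4, HIPK3 was 0.004 in 22RV1 alone, and in DU145 alone CLK2 was -0.135, CLK3 0.0547 and CLK4 0.0101; without a pair, HIPK3 ranged from -0.107 to 0.0451, CLK1 from -0.161 to 0.0665, CLK2 from -0.0399 to 0.119, CLK3 from -0.0686 to 0.0783 and CLK4 from -0.246 to 0.0602. Between the lines, CLK2 ranged from -0.0125 to 0.164 and CLK3 from -0.0231 to 0.132. None of these passed a test, and the cause of the moves was not tested.

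Of the 56 differences of members within pairs, 13 were over 1.5-fold, 4 were over 2-fold, and 15 were over 1.5-fold with total counts. With the longest transcript, mean levels in RPKM were in 22RV1 35.7 for CLK2, 14.2 for CLK1, 13.9 for HIPK1, 10.9 for HIPK3, 6.79 for CLK3 and 2.55 for CLK4, and in DU145 34.3 for CLK2, 8.55 for CLK1, 6.75 for CLK3 and 2.06 for CLK4, by construction of the shorter length. With total counts HIPK3 stood at 10.9 RPKM in 22RV1 and CLK2 at 23.6 RPKM in DU145. The labels give no replicate numbers, and pairs matched by condition are blocks of the fits as reported. Depth limits CLK4, with 132 to 507 counts, and 1 library per condition limits every test.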

Other observations

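Responses of related genes also differed between the lines. Among the 14 SR splicing factors, 5 passed the interaction test of H2O2 with line, 1 with a higher and 4 with a lower change in 22RV1, against 19.5% of all genes called and 8.87% called lower, and they are named here after their values were seen. SRSF1 differed by -1.08 ± 0.11 on the log2 scale (22RV1 minus DU145, SE, adjusted p = 9.64e-07), SRSF2 by -0.87 ± 0.12 (2.65e-05), TRA2B by -0.77 ± 0.12 (0.000114), SRSF10 by -0.46 ± 0.11 (0.00633) and SRSF5 by 0.36 ± 0.12 (0.0392). Among the 10 CMGC relatives, 2 passed, a share of 20% near that of all genes. They were DYRK2 (-0.73 ± 0.15, adjusted p = 0.00212) and SRPK1 (-0.50 ± 0.11, adjusted p = 0.00376), an SR-protein kinase found mainly in the cytoplasm.

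Of the 27 HIPK regulators, partners and substrates, 9 passed (33.3%, against 19.5% of all genes), 6 with a higher and 3 with a lower change in 22RV1. MDM2 differed by 0.65 ± 0.11 (adjusted p = 0.000402) and PML, a nuclear body protein that binds HIPK2, by 0.59 ± 0.15 (adjusted p = 0.0101). SIAH1 (-0.90 ± 0.20, adjusted p = 0.00333) and SIAH2 (-0.76 ± 0.16, adjusted p = 0.00173), ubiquitin ligases that degrade HIPK2, and DAXX (-0.63 ± 0.12, adjusted p = 0.000629) were the 3 lower. In the PAGE4 pathway, 2 of 7 genes passed (28.6%, against 19.5% of all genes). JUN differed by -1.10 ± 0.20 (adjusted p = 0.000456) and FOS by 1.18 ± 0.27 (adjusted p = 0.00369). The named genes of the last 2 lists were also chosen after their values were seen, and all p-values are adjusted over all genes tested by edgeR.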
